A study of Homo sapiens with 42 samples.

Results

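The genes described here set the brake on the G1 phase of the cell cycle: the CDK inhibitors CDKN2A, CDKN2B, CDKN2C, CDKN1B and CDKN1C, the pocket proteins RB1 and RBL1, the D cyclins CCND2 and CCND3, and the kinase CDK6. They were chosen by name, 10 genes in all, and each was read from the probe set annotated to it alone that had the highest mean over 42 arrays. A probe set was found for 9 of the 10, out of 19775 genes, and CDKN2C was not analysed here. RNA of head and neck squamous cell carcinoma (HNSCC) lines was hybridised to Affymetrix hgu133plus2.0 arrays, with 3 arrays in each of 14 groups. SCC25, SQ20B and SCC61, which are HPV-negative, and SCC047, SCC090 and 93VU147T, which are HPV-positive, were each measured untreated and after 24 hours of 100 nM cetuximab, an antibody that keeps ligands from EGFR. Treated cells alone were measured of SCC1, an HPV-negative line, and untreated cells alone of HaCaT, an immortalized keratinocyte line. HPV status is taken from the study's text and the coloring of the lines in its figures, on which the status of SCC090 rests. Of the 3 HaCaT arrays 2 carry the same number in their labels and may share an RNA extract, so no SD is given for them. All 3 were scanned in a batch of their own. Differences between HaCaT and the cancer lines below therefore cannot be told apart from a batch difference. The SCC1 arrays were scanned in a batch apart from all other treated arrays, so differences between SCC1 and the other lines carry the same limit. Each line stands for 1 tumor, and nothing in the labels says that the 3 arrays of a group came from separate cultures, so p-values over arrays may measure technical spread only.

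In G1, the D cyclins bind CDK4 or CDK6 and the complex phosphorylates RB1, which then releases the E2F factors that switch on S phase genes. The INK4 proteins, p16 from CDKN2A, p15 from CDKN2B and p18 from CDKN2C, bind CDK4 and CDK6 and keep them from the cyclins, while the CIP/KIP proteins p27 from CDKN1B and p57 from CDKN1C block the cyclin complexes of CDK2. In HPV-positive tumors the viral E7 protein binds and inactivates RB1 and its relatives, p16 is characteristically high, and p16 staining serves as a surrogate of HPV status.

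All values are log2 expression, so that a difference of 1 is a doubling, and differences are tested with limma at an adjusted p under 0.05 over all 19775 genes. The array of SCC090 control replicate 1 stood apart from the other SCC090 controls. Over genes brighter than the median gene, the SD of its difference from them was 0.32 and 0.31, against 0.14 between the other two. The third 93VU147T control differed from its partners by an SD of 0.29 and 0.23, against 0.13, and the third SQ20B control was scanned with the SCC1 arrays rather than with the other arrays of the 6 lines. Changes without these arrays are given below. Of 6 squamous epithelium markers read, 4 to 6 per group lay above the median gene, the lowest being KRT14 at 4.85 in untreated SQ20B. Fibroblast markers reached the median gene for 0 to 4 of 7, leukocyte markers for 0 to 3 of 5 and endothelial markers for 0 to 1 of 4. With cetuximab, 4 of 7 fibroblast markers rose in SCC25, 3 in SCC61 and 2 in SQ20B (8.66%, 24.4% and 18.4% of all genes rose). Of the same 7, 1 fell in SQ20B and 2 each in SCC047 and 93VU147T (14.9%, 19.0% and 18.8% of all genes fell). Their part in the results below was not tested. The 3' minus 5' signal of ACTB, which tracks RNA integrity, moved with cetuximab by 0.29 in SQ20B and by at most 0.11 in size in the other lines, and its part was not tested either.

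**Figure D1:**
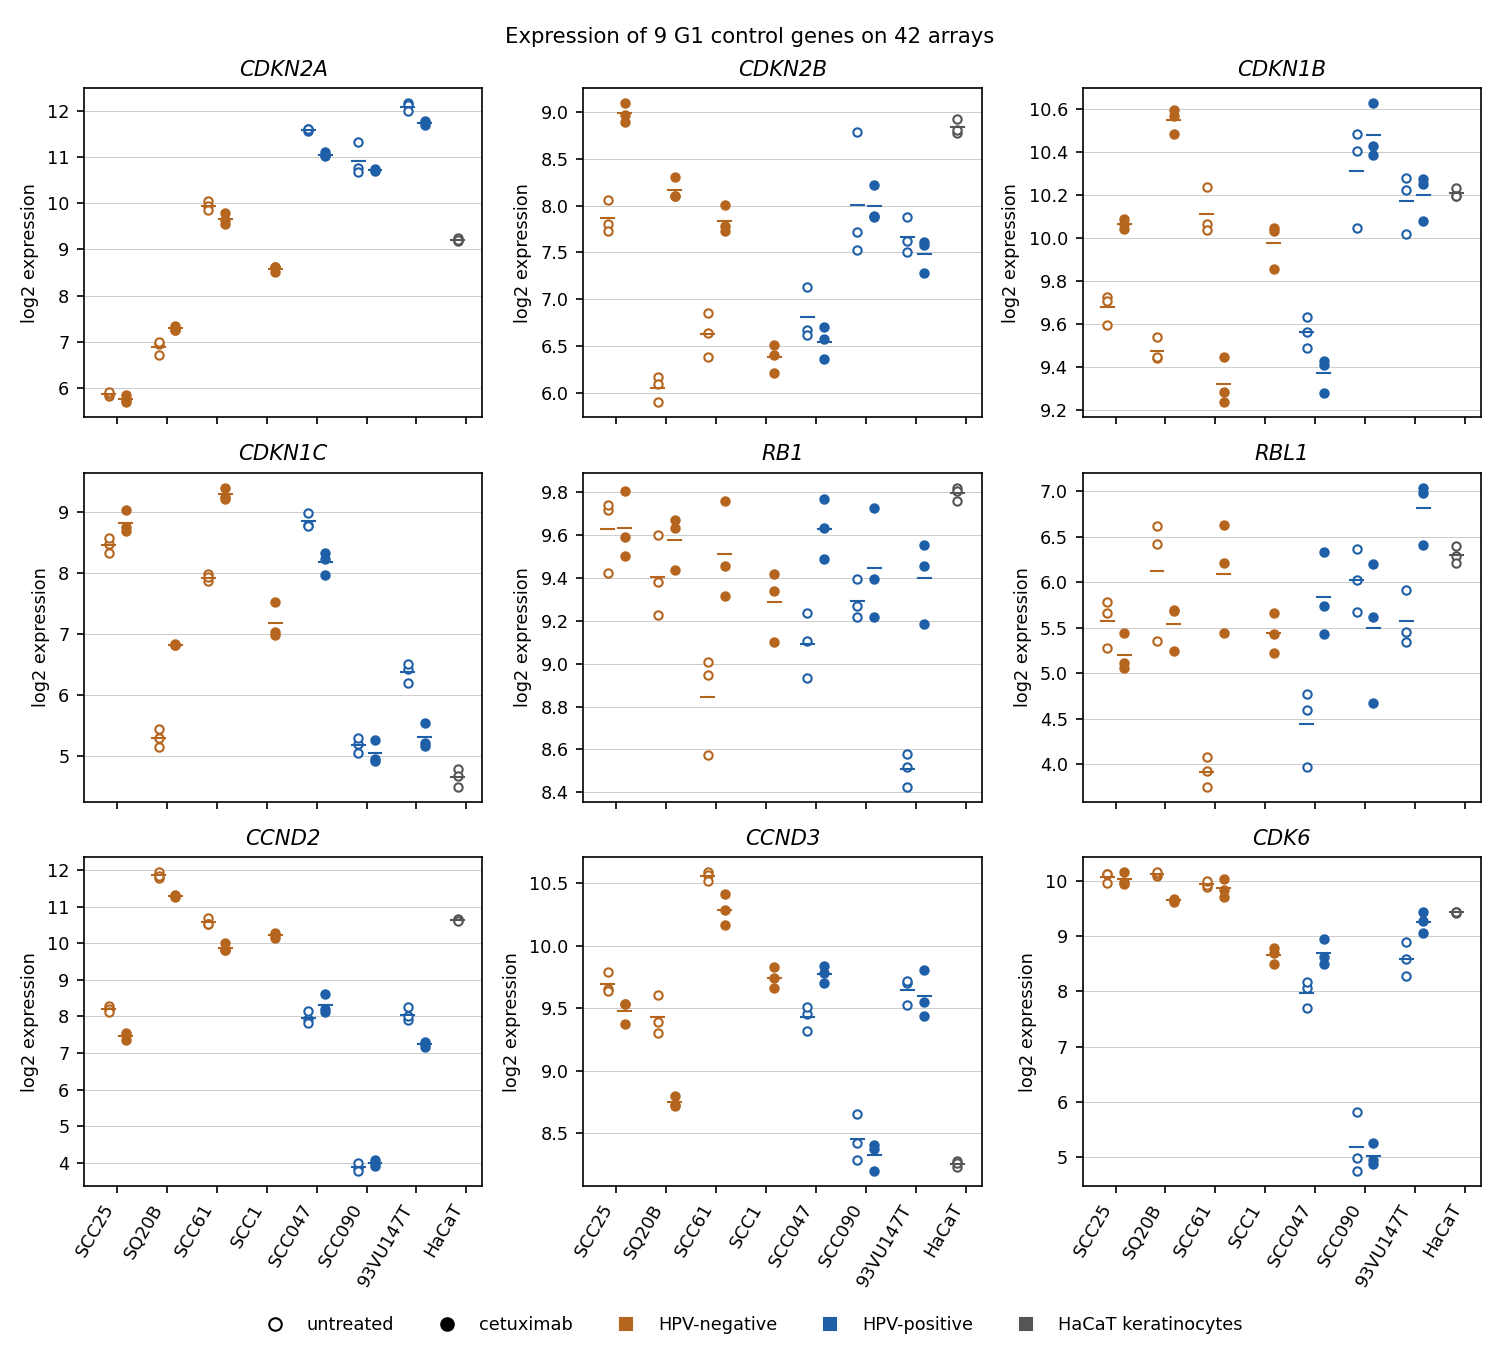
Log2 expression of the 9 genes on all 42 arrays, by cell line, with open points for untreated cells, filled points for cetuximab and short bars for the group mean of 3 arrays. Untreated CDKN2A lies between 10.67 and 12.16 in the HPV-positive lines and between 5.84 and 10.05 in the HPV-negative ones, while CDK6 and CCND2 reach their lowest levels in SCC090.

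CDKN2A, the gene of p16, separated the untreated HPV-positive from the untreated HPV-negative lines. Its probe set, 209644_x_at, read 5.84, 5.88 and 5.91 on the arrays of untreated SCC25, 6.95, 7.00 and 6.72 in SQ20B, and 10.05, 9.94 and 9.85 in SCC61. In the HPV-positive lines it read 11.55, 11.60 and 11.61 in SCC047, 11.32, 10.75 and 10.67 in SCC090, and 12.16, 12.12 and 11.98 in 93VU147T. No array of the HPV-positive lines fell to the level of any HPV-negative array, and SCC61 came nearest of the HPV-negative lines. The mean of the HPV-positive lines exceeded that of the HPV-negative lines by 3.96 (SE 1.10), a 15.6-fold difference. With the line as the replicate this did not pass (limma adjusted p = 0.452), and the exact two-sided permutation p over 3 against 3 lines was 0.1, the smallest this design can give. HaCaT keratinocytes, at 9.24, 9.18 and 9.21, lay between SQ20B and SCC61. The HPV-negative lines spanned 4.07 from SCC25 to SCC61, more than the distance from SCC61 to any HPV-positive line. On this probe set each step in the order 93VU147T, SCC047, SCC090, SCC61, SQ20B and SCC25 passed limma (adjusted p from 4.25e-22 to 0.000116). Without the first SCC090 control, SCC090 read 10.71 and the HPV difference was 3.89.

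The suffix of 209644_x_at marks a set whose probes may also bind related sequences. The second CDKN2A set, 207039_at, gave an untreated difference of 3.54 between HPV-positive and HPV-negative lines, and 211156_at, the dimmest at a mean of 5.26, gave 0.10. The order of lines was not the same on 207039_at, where untreated SCC090, at 9.56, lay above SCC047, at 9.41. Untreated SCC25 read 3.59 on 207039_at, below the 10th percentile of gene means at 3.85. Across the 14 group means the Pearson r with the first set was 0.95 for 207039_at and 0.38 for 211156_at. RefSeq gives several transcripts and proteins for CDKN2A and lists p14ARF beside p16 among the names of the gene. A further RefSeq promoter window of the gene, chr9:21995275-21995574, is not printed. Which transcripts of CDKN2A the probe sets read was not tested. The promoter at the p16 start, RefSeq GRCh38.p14 chr9:21974808-21975107 on the minus strand, is shown because the level of this gene parted the lines. The capitals mark GC boxes (GGGCGG or its reverse complement CCGCCC, held by 45.0% of all 35116 RefSeq promoter windows of 300 bases), read from 5' to 3'.
CDKN2A: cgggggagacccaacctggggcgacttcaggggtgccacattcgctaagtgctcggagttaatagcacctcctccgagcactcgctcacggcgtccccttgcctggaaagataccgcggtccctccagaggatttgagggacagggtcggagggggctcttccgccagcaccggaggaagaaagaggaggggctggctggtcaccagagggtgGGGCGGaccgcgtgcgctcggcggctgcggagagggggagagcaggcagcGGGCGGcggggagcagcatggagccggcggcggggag

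CDKN2B, the gene of p15 beside CDKN2A, did not follow it. Untreated levels ran from 6.05 ± 0.14 in SQ20B through 6.63 ± 0.23 in SCC61, 6.81 ± 0.28 in SCC047, 7.67 ± 0.19 in 93VU147T and 7.86 ± 0.18 in SCC25 to 8.01 ± 0.68 in SCC090 (SD, n = 3). The groups of HPV-positive and HPV-negative lines overlapped, with a difference of 0.65 (SE 0.56, limma adjusted p = 0.853). The 3 SCC090 controls read 8.79, 7.53 and 7.71, and without the first of them the mean was 7.62, below SCC25 and 93VU147T. SCC090 and SCC25 did not differ beyond their spread (limma adjusted p = 0.544), nor did SCC25 and 93VU147T (0.45) or SCC047 and SCC61 (0.479). HaCaT cells read 8.77, 8.80 and 8.93, above the mean of every untreated line. MTAP, the gene on the other side of CDKN2A, was measured at 6.22 in SCC25 to 7.48 in SQ20B, and CDKN2B-AS1, the antisense transcript of the locus, at 3.38 to 3.50, within the dimmest values of the array. The CDKN2B promoter, RefSeq GRCh38.p14 chr9:22009256-22009555 on the minus strand, is shown for the response described below, again with GC boxes in capitals.
CDKN2B: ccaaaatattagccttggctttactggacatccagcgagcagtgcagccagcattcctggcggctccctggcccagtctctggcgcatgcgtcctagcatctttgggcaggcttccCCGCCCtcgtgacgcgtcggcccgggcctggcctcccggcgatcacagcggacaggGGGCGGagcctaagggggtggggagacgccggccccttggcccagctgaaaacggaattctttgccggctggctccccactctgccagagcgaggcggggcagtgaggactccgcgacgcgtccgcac

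Of the CIP/KIP inhibitors, CDKN1B varied little and CDKN1C a great deal. CDKN1B, the gene of p27, read from 9.48 ± 0.06 in SQ20B to 10.31 ± 0.23 in SCC090. In its order of lines 1 step of 5 passed, that from SCC61 to SCC25 (0.44, limma adjusted p = 0.000147). CDKN1C, the imprinted gene of p57, read 8.85 ± 0.11 in SCC047, 8.46 ± 0.12 in SCC25, 7.92 ± 0.06 in SCC61, 6.38 ± 0.16 in 93VU147T, 5.30 ± 0.15 in SQ20B and 5.18 ± 0.12 in SCC090. Each step passed except that from SQ20B to SCC090 (0.12, limma adjusted p = 0.405). High and low lines stood in both HPV classes, and the HPV difference was -0.42 (SE 1.26, limma adjusted p = 0.97). HaCaT cells had the lowest CDKN1C level of all groups, with arrays at 4.50, 4.79 and 4.67.

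The pocket protein genes differed in how far they varied. RB1 read 9.63 ± 0.18 in untreated SCC25, 9.40 ± 0.19 in SQ20B, 9.30 ± 0.09 in SCC090, 9.09 ± 0.15 in SCC047, 8.84 ± 0.23 in SCC61 and 8.51 ± 0.08 in 93VU147T, and of the 5 steps in this order only the last passed (0.34, limma adjusted p = 0.0341). Its level was thus no lower in the HPV-positive lines beyond the spread between lines (-0.33, SE 0.30, limma adjusted p = 0.86). RBL1, the gene of p107, is itself an E2F target. It read 6.13 ± 0.68 in SQ20B, 6.02 ± 0.35 in SCC090, 5.57 ± 0.26 in SCC25, 5.57 ± 0.30 in 93VU147T, 4.45 ± 0.42 in SCC047 and 3.92 ± 0.16 in SCC61. Of the steps in this order the one from 93VU147T to SCC047 passed (1.12, limma adjusted p = 0.00413), and the HPV difference was 0.14 (SE 0.71).

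The RBL1 promoter, RefSeq GRCh38.p14 chr20:37095948-37096247 on the minus strand, is shown because it was the window with E2F motifs among 14 RefSeq promoter windows of 8 of the 10 genes. The window of RB1 among them lies at a start inside the gene, so the promoter at the first exon of RB1 was not searched. The capitals mark TTTCGCGC and TTTGGCGC, which start 225 and 235 bases into the window. The search covered TTTCCCGC, TTTGGCGC, TTTCGCGC and TTTGCCGC on both strands, and 3.31% of all windows hold at least 1 of them. For CDKN1C and CCND2 no promoter is printed.
RBL1: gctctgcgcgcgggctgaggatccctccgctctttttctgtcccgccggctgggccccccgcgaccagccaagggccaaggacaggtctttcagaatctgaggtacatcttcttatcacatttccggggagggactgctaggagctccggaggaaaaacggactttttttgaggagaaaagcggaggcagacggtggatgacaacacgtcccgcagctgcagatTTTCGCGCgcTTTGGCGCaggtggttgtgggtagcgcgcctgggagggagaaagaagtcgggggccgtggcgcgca

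CDK6 had all untreated HPV-positive lines below all HPV-negative ones, the reverse of CDKN2A. It read 10.12 ± 0.03 in SQ20B, 10.07 ± 0.10 in SCC25 and 9.93 ± 0.06 in SCC61, which did not differ from each other (limma adjusted p of 0.87 and 0.57 for the 2 steps). It was lower in 93VU147T, at 8.59 ± 0.31, in SCC047, at 7.98 ± 0.25, and in SCC090, where the 3 arrays read 5.82, 4.75 and 4.99. The 9 arrays of the HPV-positive lines thus ran from 4.75 to 8.89 and those of the HPV-negative lines from 9.89 to 10.15, with no overlap. The HPV difference was -2.79 (SE 0.91, limma adjusted p = 0.53, exact permutation p = 0.1). CCND2 spanned most, from 11.85 ± 0.08 in SQ20B, 10.58 ± 0.09 in SCC61 and 8.20 ± 0.09 in SCC25 to 8.05 ± 0.19 in 93VU147T, 7.96 ± 0.16 in SCC047 and 3.88 ± 0.12 in SCC090. SCC25, 93VU147T and SCC047 did not differ by step (limma adjusted p of 0.253 and 0.565), and SCC090, near the 10th percentile of gene means at 3.85, had the lowest level. Its HPV difference was -3.58 (SE 1.51, limma adjusted p = 0.62, exact permutation p = 0.1). CCND3 read 10.56 ± 0.04 in SCC61, 9.43 to 9.69 in 4 lines and 8.45 ± 0.19 in SCC090, and its HPV difference was -0.72 (SE 0.44, limma adjusted p = 0.754). SCC090 thus had the lowest CDK6, CCND2 and CCND3 among the 6 lines, and CCND1, the D cyclin outside this group, read 6.45, 4.68 and 4.82 on its control arrays against 8.40 to 10.29 as means of the other lines. HaCaT cells had CCND2 at 10.63 and CDK6 at 9.43, above all HPV-positive lines, and CCND3 at 8.25, below every line.

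Of the 9 genes, CDKN2A had all 3 HPV-positive lines above all 3 HPV-negative lines before treatment, as had 7.81% of all genes, and CDK6 and CCND2 had them below, as had 6.56%. For CCND2 this held for line means only. Its untreated arrays overlapped, with the highest HPV-positive array at 8.26 and the lowest HPV-negative array at 8.11. On the third CCND2 set 93VU147T, at 5.42, lay above SCC25, at 5.36. By limma on lines, 0 of the 9 passed, while among all genes 0.00506% passed as higher and 0.0101% as lower. At an unadjusted p under 0.05 there were 2 of the 9, against 1641 of all 19775 genes. Of 45 steps between neighbouring lines in the members' orders 22 passed. Over all genes 52.6% of comparisons between any 2 lines passed, a share not comparable with that count, since neighbours in an order are the closest lines. Treated cells of the same 6 lines kept the separation for CDKN2A, with all HPV-positive lines higher (8.12% of genes), and for CDK6, with them lower (5.67%). Since the lines are the same, this is not a second test of the separation. In treated cells 0 of 9 passed limma on lines, where 0.0152% of genes were higher and 0.0202% lower. There 1 of the 9 had an unadjusted p under 0.05, against 1497 of all 19775 genes. Treated CDKN2A ran from 10.70 to 11.77 on the HPV-positive arrays and from 5.69 to 9.78 on the HPV-negative ones. Treated SCC1 cells, a further HPV-negative line, had CDKN2A at 8.58 ± 0.06, below every HPV-positive line, but CDK6 at 8.66 ± 0.15, level with the 8.69 of SCC047 and below the 9.26 of 93VU147T. In these SCC1 values the line cannot be told apart from its scan batch. CCND2 no longer separated the classes, since SCC25 fell to 7.47 and SCC047 read 8.31.

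Cetuximab changed these genes in 5 of the 6 lines, and in different directions. Of 54 combinations of gene and line, 32 passed limma. In SCC25 3 of 9 genes were higher and 1 lower (background 8.66% and 7.30% of all genes), in SQ20B 4 and 3 (18.4% and 14.9%), and in SCC61 4 and 4 (24.4% and 19.8%). In SCC047 5 were higher and 2 lower (17.3% and 19.0%) and in 93VU147T 3 and 3 (15.8% and 18.8%). In SCC090 0 of 9 passed, where 0.516% of genes were higher and 0.885% lower. At an unadjusted p under 0.05 the count was also 0 of 9, against 2415 of all 19775 genes. Without the first SCC090 control array 0 again passed, with CDKN1B at 0.04 in place of 0.17 and CCND3 at -0.03 in place of -0.13. Without the third 93VU147T control 6 again passed, CDK6 going from 0.67 to 0.82 and RBL1 from 1.24 to 1.41. Of the changes that did not pass, CDKN2B went from -0.18 to -0.08 and CDKN1B turned from 0.03 to -0.05. Without the third SQ20B control 7 again passed, with RBL1 gained and CDK6 lost, and CDKN2A went from 0.40 to 0.32. The size of the change differed among the 6 lines for all 9 genes (moderated F test of limma), as it did for 59.0% of all genes.

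**Figure D2:**
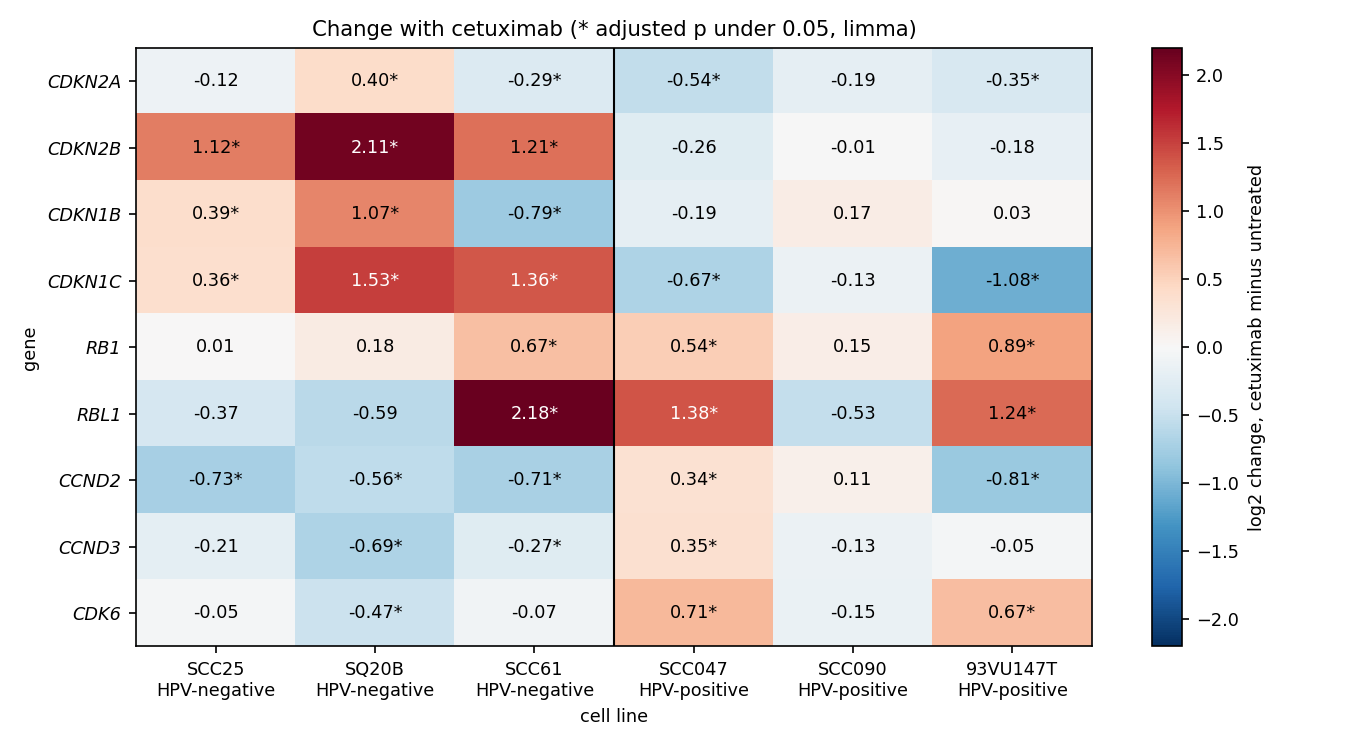
Log2 change with cetuximab of the 9 genes (rows) in the 6 lines (columns), as the treated minus the untreated mean of 3 arrays each, with the color for the size and a star for a limma adjusted p under 0.05. CDKN2B and CDKN1C are positive in the 3 HPV-negative lines left of the black line and not positive in the 3 HPV-positive lines right of it.

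CDKN2B rose in each HPV-negative line. In SCC25 it went from 8.06, 7.80 and 7.73 to 9.09, 8.90 and 8.97, in SQ20B from 6.17, 6.10 and 5.90 to 8.31, 8.10 and 8.10, and in SCC61 from 6.39, 6.64 and 6.85 to a mean of 7.84 ± 0.14 (SD, n = 3) with 7.73 the lowest treated array. All treated arrays lay above all controls in these lines. The changes were 1.12, 2.11 and 1.21 (SE 0.20 each), or 2.18-fold, 4.33-fold and 2.31-fold (limma adjusted p = 8.97e-05, 3.66e-10 and 4.43e-06). In the HPV-positive lines the arrays overlapped, with changes of -0.26 in SCC047, -0.01 in SCC090 and -0.18 in 93VU147T, and 0 of 3 passed. Without the first SCC090 control the SCC090 change was 0.37 (limma adjusted p = 0.634), so its sign rested on that array. The dimmer CDKN2B set 207530_s_at moved by 0.72, 0.45 and 0.47 in the HPV-negative lines, of which that in SQ20B did not pass (limma adjusted p = 0.0658), and by -0.32, -0.19 and -0.11 in the HPV-positive lines. Treated SCC1 cells read 6.38 ± 0.15, the level of untreated HPV-negative lines at 6.05 to 7.86, but no untreated SCC1 array was analysed here.

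CDKN1C rose in the HPV-negative lines and fell in 2 of the HPV-positive ones. The control arrays of SQ20B read 5.14, 5.44 and 5.30 and the treated ones 6.81, 6.82 and 6.83, and those of SCC61 7.86, 7.98 and 7.93 against 9.40, 9.21 and 9.25. In 93VU147T the controls read 6.43, 6.52 and 6.20 and the treated arrays 5.21, 5.54 and 5.17, and in SCC047 8.79, 8.98 and 8.77 against 8.33, 8.23 and 7.96. Treated and control arrays did not overlap in these 4 lines. The rises were 1.53 in SQ20B and 1.36 in SCC61 (SE 0.11, limma adjusted p = 3.72e-12 and 1.31e-11), 2.88-fold and 2.57-fold, and the falls -1.08 in 93VU147T and -0.67 in SCC047 (limma adjusted p = 7.78e-09 and 1.77e-05). In SCC25 it rose by 0.36 (limma adjusted p = 0.0248), a call lost without its first treated array or without either of its first 2 controls (adjusted p from 0.0527 to 0.191), and SCC090 changed by -0.13 (0.723). On the second set the SCC25 change was 0.27 (limma adjusted p = 0.113). Of the 5 CDKN1C sets, 4 gave the same signs in SCC25, SQ20B, SCC61, SCC047 and 93VU147T, and the fifth, at a mean of 4.09, moved by at most 0.13 in size.

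These 2 genes were those of the 9 whose change was above 0 in all HPV-negative and below 0 in all HPV-positive lines, a pattern held by 2.93% of all genes. For CDKN2B it did not hold without the first SCC090 control. For CDKN1C it did not hold on the third set in brightness, where SCC090 changed by 0.08. The change in HPV-negative minus that in HPV-positive lines was 1.63 (SE 0.27) for CDKN2B and 1.71 (SE 0.37) for CDKN1C. Both had all 3 HPV-negative lines above all 3 HPV-positive lines (8.66% of genes), and CCND3 had them below (-0.45, SE 0.19; 7.08% of genes). Their exact permutation p was 0.1, the smallest possible with 3 against 3 lines. On the dimmer CCND3 set the classes overlapped, with SQ20B at 0.08 above SCC047 and 93VU147T, both at 0.05. With limma on 1 change per line 0 of the 9 passed (limma adjusted p = 0.485 for both CDK inhibitors), 2 had an unadjusted p under 0.05, and 0% of all genes passed in either direction, 1872 at an unadjusted p under 0.05. Of the 7 fibroblast markers 0 passed this comparison and 4 had an unadjusted p under 0.05, with a median difference of 0.16, and their part in it was not tested.

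**Figure D3:**
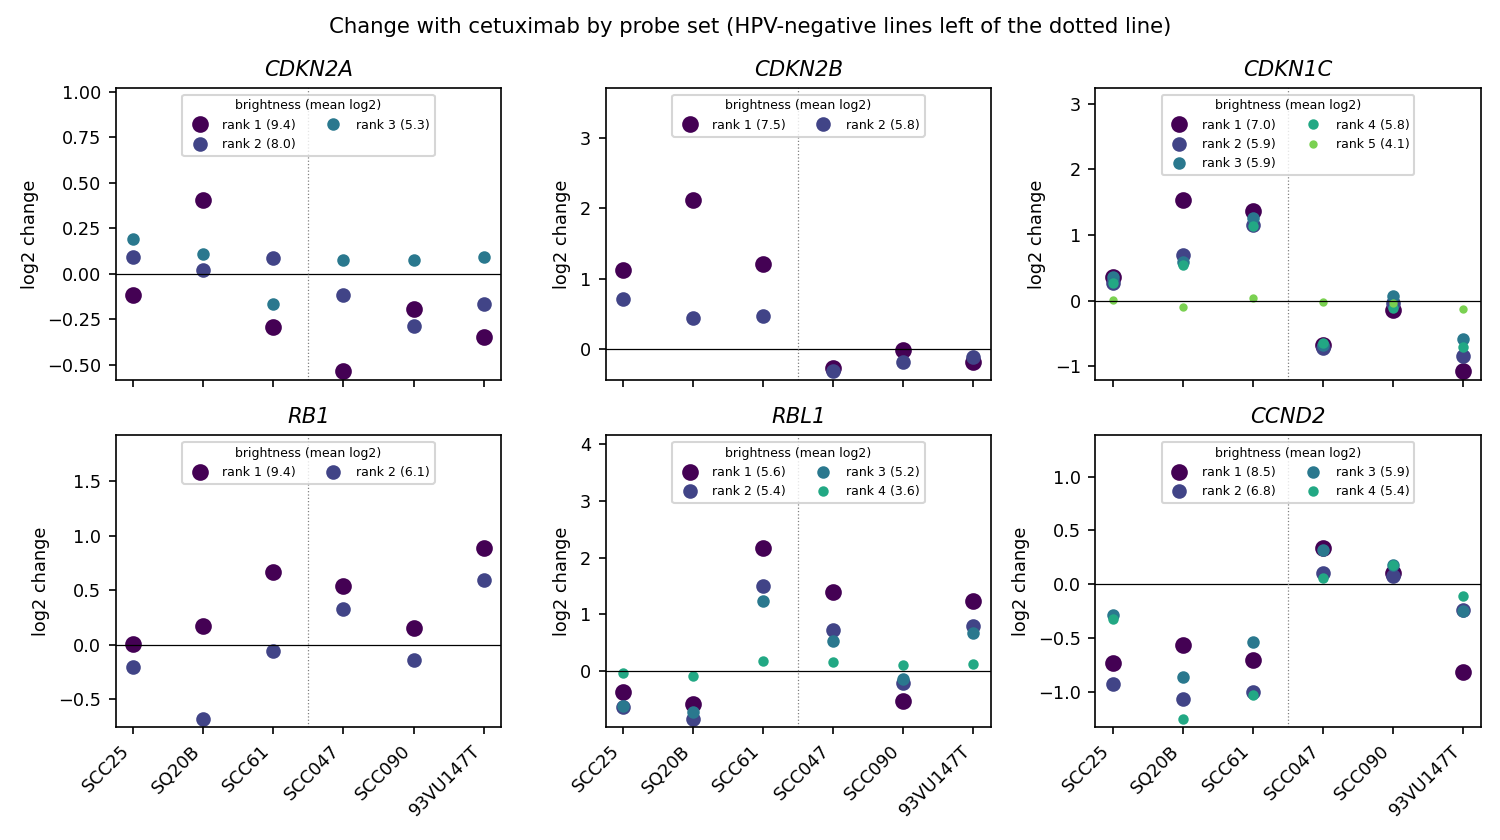
Log2 change with cetuximab in the 6 lines for each probe set of 6 genes, ranked by mean log2 brightness over 42 arrays, which stands in the legend. The sets of CDKN2B, CDKN1C, RBL1 and CCND2 have the sign of the brightest set in 5 or 6 of the 6 lines, with smaller changes on the dimmest set of CDKN1C and RBL1, while the second sets of CDKN2A and RB1 have it in 4 and 2 lines.

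CDKN1B moved in opposite directions within the HPV-negative class. It rose in SQ20B from 9.54, 9.44 and 9.45 to 10.59, 10.57 and 10.48, a change of 1.07 (SE 0.09, 2.10-fold, limma adjusted p = 7.85e-11), and in SCC25 by 0.39 (limma adjusted p = 0.00281). In SCC61 it fell from 10.06, 10.24 and 10.04 to 9.24, 9.44 and 9.28, a change of -0.79 (limma adjusted p = 1.3e-08). Each of these lines had treated arrays apart from its controls. The HPV-positive lines changed by -0.19, 0.17 and 0.03, and 0 of 3 passed. CDKN1A, the gene of p21, moved in the same directions in the same HPV-negative lines, by 0.85 in SQ20B, 0.58 in SCC25 and -0.95 in SCC61, and fell in SCC047 by -0.38 and 93VU147T by -0.35.

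CDKN2A changed less than its lines differed. By its first probe set it fell by -0.54 in SCC047, -0.35 in 93VU147T and -0.29 in SCC61 and rose by 0.40 in SQ20B (limma adjusted p from 8.24e-05 to 0.0195). In SCC047, for example, 11.55, 11.60 and 11.61 became 11.03, 11.10 and 11.02. The SCC61 call was also lost without treated replicate 2 or 3 or control replicate 1 (adjusted p from 0.0545 to 0.0956). None of these 4 calls held on the second set, where the changes were -0.12, -0.17, 0.09 and 0.02 (limma adjusted p from 0.347 to 0.933). The remaining lines changed by -0.12 in SCC25 and -0.19 in SCC090, the latter 0.01 without the first control.

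RBL1 and RB1 rose in the same 3 lines. RBL1 went from 3.92, 3.75 and 4.08 to 5.44, 6.63 and 6.21 in SCC61, from 4.60, 3.97 and 4.77 to 5.73, 5.43 and 6.33 in SCC047, and from 5.45, 5.34 and 5.91 to 7.04, 6.41 and 6.98 in 93VU147T. The treated arrays lay above the controls in each. The changes were 2.18, 1.38 and 1.24 (SE 0.32, limma adjusted p = 1.06e-06, 0.000867 and 0.00269), or 2.61-fold in SCC047 and 2.36-fold in 93VU147T. No fold is given for SCC61, whose controls lay near the 10th percentile of gene means (3.85) with no detection call. In SCC25, SQ20B and SCC090 the change was -0.37, -0.59 and -0.53 and did not pass. In SQ20B the controls read 6.41, 6.61 and 5.35, the last of them the array of the other scan batch, and without it the change was -0.97 (limma adjusted p = 0.0241). The second RBL1 set fell in both SCC25 (-0.64, limma adjusted p = 0.0296) and SQ20B (-0.84, 0.00135).

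RB1 rose by 0.89 in 93VU147T, from 8.43, 8.52 and 8.58 to 9.46, 9.19 and 9.56, by 0.67 in SCC61 and by 0.54 in SCC047 (SE 0.13, limma adjusted p = 3.74e-06, 0.000117 and 0.00184). On this set the treated levels of the 6 lines ran from 9.40 in 93VU147T to 9.64 in SCC25, where untreated levels had spanned 8.51 to 9.63, and treated SCC1 read 9.29. The second RB1 set, 211540_s_at at a mean of 6.06, gave 0.60 in 93VU147T, 0.33 in SCC047 (limma adjusted p = 0.0684) and -0.06 in SCC61. In SQ20B it fell by -0.68 (limma adjusted p = 0.000258), where the first set gave 0.18. On the second set the 6 lines spanned 5.50 to 6.43 treated and 5.57 to 6.32 untreated, so the narrower treated range was seen on the first set alone.

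S phase genes that RB represses moved as follows in the same lines. Of 19 read, 18 were higher and 0 lower in SCC61 (24.4% and 19.8% of all genes), with a median change of 1.53 against -0.03 over all genes. In SCC047 12 were higher and 1 lower (17.3% and 19.0%), with 0.38 against -0.03. In 93VU147T 6 were higher and 6 lower (15.8% and 18.8%), with -0.07 against -0.04. In SCC25 16 were lower (7.30%) and in SQ20B 13 (14.9%). Their median was -0.48 in both, against 1e-04 in SCC25 and -0.03 in SQ20B over all genes. In SCC090 0 passed (0.516% of all genes higher and 0.885% lower). POLA1, a DNA polymerase subunit, changed by 1.72 in SCC61 and 0.92 in SCC047, and EZH2, the Polycomb methyltransferase, by 1.34 in SCC61. RBL1 thus rose with the S phase genes as a list in SCC61 and SCC047, while in 93VU147T it rose where the list was evenly split.

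**Figure D4:**
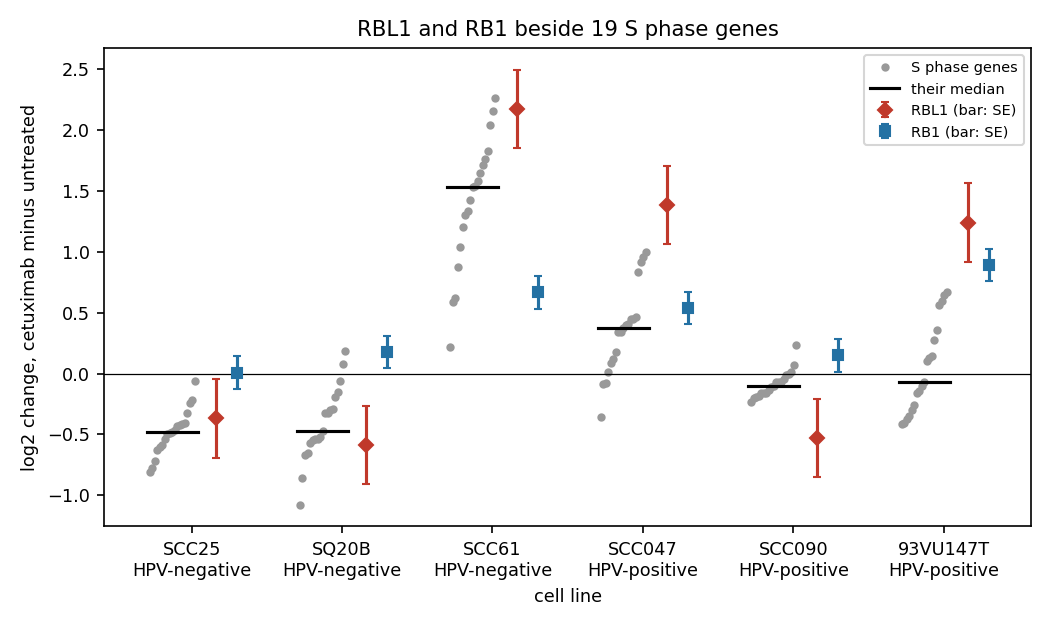
Log2 change with cetuximab of 19 S phase genes (grey points, ordered by size within a line, with their median as a black bar) beside RBL1 and RB1 (points with the SE of the limma fit) in the 6 lines. The S phase median is highest in SCC61 at 1.53 and lies at -0.48 in SCC25 and SQ20B, while RB1 lies at or above 0 in every line.

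CCND2 fell in 4 lines: by -0.81 in 93VU147T, -0.73 in SCC25, -0.71 in SCC61 and -0.56 in SQ20B (SE 0.11, limma adjusted p from 3.38e-07 to 7.98e-05). In SCC25, for example, 8.29, 8.21 and 8.11 became 7.55, 7.50 and 7.36, and in each of the 4 lines treated arrays lay below controls. In SCC047 it rose by 0.34 (limma adjusted p = 0.0111), with arrays of 7.94, 7.82 and 8.14 against 8.11, 8.19 and 8.62 that overlapped, and the call was lost without the third treated array (0.18, limma adjusted p = 0.184) or the second control (0.27, 0.0858). On the second set the changes in the HPV-negative lines ran from -1.06 in SQ20B to -0.92 in SCC25, and those of 93VU147T (-0.24) and SCC047 (0.11) did not pass. CCND3 fell in SQ20B, from 9.30, 9.60 and 9.39 to 8.71, 8.72 and 8.80 (-0.69, limma adjusted p = 1.12e-06), and in SCC61 by -0.27 (0.0223), and rose in SCC047 by 0.35 (0.00461). The SCC61 call was lost on leaving out treated replicate 2 or 3 or control replicate 1 or 2 (adjusted p from 0.0514 to 0.124). On the dimmer CCND3 set, at a mean of 4.86, none of the 3 passed.

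CDK6 rose in the 2 HPV-positive lines that express it at a middle level. In SCC047 8.06, 7.70 and 8.17 became 8.62, 8.49 and 8.95, and in 93VU147T 8.28, 8.59 and 8.89 became 9.27, 9.06 and 9.44. The changes were 0.71 and 0.67 (SE 0.18, 1.63-fold and 1.59-fold, limma adjusted p = 0.00168 and 0.00296), with no overlap of arrays. In SQ20B it fell by -0.47 (limma adjusted p = 0.0357), from 10.09, 10.12 and 10.15 to 9.67, 9.64 and 9.62, a call lost on leaving out any 1 of the 6 arrays (adjusted p from 0.0654 to 0.083) though the arrays did not overlap. The second CDK6 set gave 0.89, 0.73 and -0.50 in these lines. SCC090 changed by -0.15, and by 0.17 without its first control.

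Averaged over the 6 lines, 5 of the 9 genes were higher and 3 lower (background 22.8% and 23.1%): RBL1 0.55, CDKN2B 0.67, RB1 0.41, CDKN1C 0.23 and CDKN1B 0.11 against CCND2 -0.39, CDKN2A -0.18 and CCND3 -0.17. CDK6 averaged 0.11 (limma adjusted p = 0.236), and 0.16 without the first SCC090 control, which passed (0.0208). With 1 change per line as the replicate, 0 of 9 passed and 1 had an unadjusted p under 0.05. Without SQ20B the means of CDKN1C and CDKN1B turned to -0.03 and -0.08, so their sign rested on that line.

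Other genes of the pathway moved line by line as well, with the shares of all genes for each line as given above (in SCC61 24.4% higher and 19.8% lower, in SQ20B 18.4% and 14.9%). Of 6 further G1 cyclins and kinases, 5 were higher in SCC61 and 5 lower in SQ20B. CCND1 fell in 93VU147T (-1.11) and SQ20B (-1.01) and averaged -0.38. Its mean level went from 10.29 to 9.80 in SCC25, but up from 8.60 to 9.06 in SCC61 and from 8.40 to 8.95 in SCC047. In SCC090 CCND1 went from 5.32 to 4.66, and the control mean was 4.75 without the first control array. The change of CCNE2, cyclin E2, ran from -1.35 in SQ20B to 2.14 in SCC61. CDK4, the other kinase of the D cyclins, rose in SCC61 (0.76) and fell in SCC25 (-0.65), 93VU147T (-0.57) and SQ20B (-0.54). Of 11 RBL2 and E2F factor genes, 4 were higher and 4 lower in SCC61, 3 and 7 in SQ20B, 5 and 3 in SCC047, and 2 and 5 in 93VU147T. E2F8, a repressive E2F, rose in SCC61 (2.17), SCC047 and 93VU147T (1.08 each), the 3 lines in which RBL1 and RB1 rose, and E2F5 fell in SCC61 (-0.96), 93VU147T (-0.63) and SCC047 (-0.37). SKP2, the ligase subunit that marks p27 for degradation, rose in SCC61 by 1.61, in 93VU147T by 0.48 and in SCC047 by 0.46, and fell in SQ20B by -0.36. FBXW7, a ligase subunit that targets cyclin E, rose in SCC047 by 0.52 and 93VU147T by 0.47 and fell in SCC61 by -0.41.

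Of the regulators of the CDKN2A locus, CBX7, a Polycomb protein, fell in SCC047 (-1.08) and 93VU147T (-0.76) and rose in SQ20B (0.50) and SCC61 (0.30), and KDM6A, an H3K27 demethylase, rose in SQ20B (0.51), 93VU147T (0.30) and SCC25 (0.25) and fell in SCC61 (-0.23). MTAP fell in the HPV-negative lines, by -0.79 in SQ20B, -0.53 in SCC25 and -0.41 in SCC61, the lines in which its neighbor CDKN2B rose, and CDKN2B-AS1 changed by at most 0.15 in size and passed in none of the 6. Of 4 genes near RB1, RCBTB2 rose in 93VU147T (1.16), SCC25 (0.52), SQ20B (0.38) and SCC61 (0.33), and LPAR6, which lies within RB1, rose in SCC61 (0.98), 93VU147T (0.80) and SCC25 (0.53) and fell in SCC047 (-0.56). RB1 itself did not pass in SCC25 and rose in SCC047. Between untreated HPV classes the median difference of the 19 S phase genes was 0.86, against 0.01 over all genes, and 0 of them passed. Differences of single genes were 2.33 for E2F5, 1.70 for MCM3, -1.38 for CCND1, 1.28 for CBX7, 1.25 for CCNE1, 1.21 for MCM7, 1.10 for E2F6 and 0.92 for CDKN1A, where a positive value is higher in HPV-positive lines. They were smaller for LPAR6 (-0.75), FBXW7 (-0.70), RCBTB2 (-0.69), CKS1B (0.47), ID1 (0.16), MTAP (0.12) and CDKN2D (0.06), and 0 of these genes passed limma on lines. CDKN3, a phosphatase of CDK2, averaged a change of 0.19 over the 6 lines.

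Across the 14 group means, the genes most like each member by Pearson r were NPRL2, DLG3 and UCKL1 for CDKN2A (0.94 to 0.91), SIRPA, OSBPL3 and BNC1 for CDK6 (0.97 to 0.96), and EGFR, ETS1 and FCRLB for CCND2 (0.95 to 0.93). For CCND3 they were YKT6, BET1L and ARFGAP1 (0.94 to 0.92), for CDKN1C CD81, APOL1 and ZIC1 (0.90), for RBL1 RECK, BRCC3 and PABIR2 (0.91 to 0.88) and for RB1 TXNDC17, KIF11 and PPP2R1B (0.90 to 0.85). For CDKN2B they were ATP9B, SOS2 and TSHZ1 (0.86 to 0.83) and for CDKN1B ALDH6A1, TMEM87A and LINC01003 (0.82 to 0.79). EGFR, the target of cetuximab, thus had the pattern closest to CCND2. The 14 means share 8 lines and include treated and untreated cells of 6 of them, and these values are a description of likeness only.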

How the data were processed

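Total RNA of cell lines was hybridised to Affymetrix hgu133plus2.0 arrays. The values the authors deposited are log2 intensities of probe sets from fRMA (frozen robust multi-array analysis), which fits every array to a fixed reference. Their methods also name pSVA, a batch correction, but not whether it was run before deposit. The values ran from 2.62 to 14.5, with array medians of 5.09 to 5.16, and the number of arrays limits the precision. No detection calls were used, and dim probe sets understate fold changes.

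Of 54675 probe sets, 62 are array controls, 41091 name a single gene, 1801 name more than 1 gene, and for 11721 no gene was given in the table at hand. For 41037 of the named sets the gene identifier matched RefSeq. The brightest set was kept for each of 19775 genes. In limma 3.58.1 under R 4.3.3, 36 arrays were fitted as 12 group means with 24 residual and 6.86 prior degrees of freedom. HPV comparisons used 1 value per line, and Benjamini-Hochberg adjustment ran over all genes. Scripts were tested on simulated data. Exact permutation tests were two-sided, with one comparison per gene for the untreated level, the treated level and the change. HPV status came from the study's text and figures rather than from GEO's labels. Treated SCC1 and untreated HaCaT arrays, which have no partner, entered alternatives only.

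All members are named, with MTAP, CDKN2B-AS1, CCND1, CDK4 and CDKN1A, the 2 largest passing mean changes and 2 largest HPV differences of other lists, and the 3 genes most like each member. CDKN2A had 3 sets, CDKN2B 2, CDKN1B 1, CDKN1C 5, RB1 2, RBL1 4, CCND2 4, CCND3 2 and CDK6 7. The members and lists were chosen with earlier results of these data known. Alternatives were other probe sets and their mean, a filter on dim genes (over 5 on at least 3 arrays), 2 scalings, a replicate block, all 42 arrays, scan batch, a moderation trend, a minimum change of 0.5, other replicate units, and leaving out arrays or lines.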

Additional observations from a re-analysis of the deposited data

Results flagged for a closer look

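For all 9 genes the change with cetuximab differed among the 6 lines by limma's moderated F test over 36 arrays, as it did for 59.0% of all genes. The distance between the highest and the lowest change was 2.76 for RBL1 (SCC61 and SQ20B, adjusted p = 1.93e-06), 2.60 for CDKN1C (SQ20B and 93VU147T, 6.31e-15), 2.37 for CDKN2B (SQ20B and SCC047, 6.73e-09) and 1.86 for CDKN1B (SQ20B and SCC61, 8.37e-12). It was 1.18 for CDK6 (SCC047 and SQ20B, 0.000313), 1.15 for CCND2 (SCC047 and 93VU147T, 2.43e-08), 1.04 for CCND3 (SCC047 and SQ20B, 6.15e-06), 0.94 for CDKN2A (SQ20B and SCC047, 3.61e-05) and 0.89 for RB1 (93VU147T and SCC25, 0.000711). On probe sets of brightness rank 2 the F test did not pass for CDKN2A (0.38, adjusted p = 0.28) or CCND3 (0.34, adjusted p = 0.629). For CDKN2A it also failed on the mean of the probe sets (adjusted p = 0.0763) and without SQ20B (0.42, adjusted p = 0.118).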

How the results depend on the processing

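Counts of the 9 genes that passed changed by over 1.5 times under few settings. With a minimum change of 0.5 they were 0 in SCC25 (4 without it), 3 in SQ20B (7), 4 in SCC61 (8), 0 in SCC047 (7), 1 in 93VU147T (6) and 0 in the mean (8). On probe sets of brightness rank 2 they were 5 in SCC61, 3 in SCC047 and 3 in the mean, and with all probe sets of a gene averaged 4 in SCC047. Among all genes on rank 2, 4133 were higher and 3239 lower in SCC61, 2774 and 3005 in SCC047, and 3620 and 4034 in the mean. With probe sets averaged, 3203 genes were higher and 3501 lower in SCC047. With 1 change per line the count in the mean was 0, as it was over all genes. With arrays instead of lines as replicates, 7 passed for the HPV difference in change, 8 for untreated and 7 for treated levels, where 0 passed over lines. On sets of rank 2 the sign turned for RB1 in SQ20B (-0.68), SCC61 (-0.0564) and the mean (-0.0235), for CCND3 in SQ20B (0.0814) and for CDKN2A in SCC61 (0.0853), and without SQ20B for CDKN1B (-0.0793) and CDKN1C (-0.0313) in the mean. The cause was not tested. Of 2907 values of single genes under these settings 2774 stayed on the same side of the threshold, among them 45 that changed sign while neither value passed, 93 lost their call, 33 gained one and 7 reversed. Of the 2774, 1600 came from leaving out 1 array. Under settings that left out neither arrays nor lines, 914 stayed, 69 lost their call, 29 gained one and 5 reversed. Leaving out 1 array at a time gave counts of 3 to 4 in SCC25, 6 to 7 in SQ20B, 6 to 8 in SCC61, 6 to 7 in SCC047, 0 in SCC090, 6 in 93VU147T and 8 to 9 in the mean. The treated levels with SCC1 were added after seeing the data.

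Replicate numbers were not taken as pairs. Of 18 correlations between deviations of same-numbered arrays 11 exceeded 0.1, all 3 in SQ20B among them. The correlations ran from -0.23 to 0.51, which does not settle whether arrays of some lines were paired. With the replicate block the counts were again 4, 7, 8, 7, 0 and 6 in SCC25, SQ20B, SCC61, SCC047, SCC090 and 93VU147T, and 8 in the mean.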
